A study of Mus musculus with 56 samples.

Results

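Gastrocnemius muscle of 6 mice given air for 2 weeks in a nose-only exposure device was compared with that of 6 untreated mice taken at week 0. The members are the arrays whose source labels read 2 Week FA and Untreated Week 0, which are 12 of the 56 arrays of the series. The labels do not spell out FA, and it was read as the air, or sham, exposure because air is the only exposure besides cigarette smoke in the study's design. The whole series follows smoke or air over 2, 12 or 24 weeks, and smoking cessation, in female C57BL/6 mice from Jackson Laboratory.

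All 12 mice were therefore female C57BL/6 animals with no genetic change named, and none had been exposed to smoke. The sham mice breathed air through the nose piece in sessions of 2 hours, 5 times a week. The labels used here do not give the age of either group, the hour of collection, the access to food, or whether the untreated mice were ever handled or held in the device. The procedure, 2 more weeks of age, the collection day and its hour can therefore not be told apart in this comparison.

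Skeletal muscle switches between fat and glucose as fuel, and it stores fat in droplets that supply its mitochondria. It also carries a circadian clock, in which the protein of Arntl, called BMAL1, pairs with CLOCK or NPAS2 to switch on the Per and Cry genes. PER and CRY proteins then hold that pair back, so that Arntl and the Per genes peak at opposite phases of the day. Fasting and glucocorticoids are known to raise Pdk4 and Fbxo32, genes of fuel choice and of muscle wasting.

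All levels below are log2(intensity + 16) of the deposited array intensities, with 1 probe set for each of 12351 genes, and a difference is the sham mean minus the untreated mean. A gene is said to have risen or fallen where limma's Benjamini-Hochberg adjusted p was below 0.05. A difference on this scale understates the change of genes close to background. The array medians of the 12 mice lay between 63.9 and 76.5 intensity units, and the correlations between any pair of these arrays between 0.963 and 0.993. The 18 skeletal muscle markers had mean levels of 13.27 to 13.38 in every mouse, with a median difference of -0.01. In each group 1 array carried lymph node signal. Glycam1, a glycoprotein of lymph node vessels, had an intensity of 10500 in untreated replicate 1 and 9460 in sham replicate 3, against 10.7 to 134 in the other 10. On those arrays the 10 lymphocyte markers had mean levels of 10.58 and 9.95, while the other 10 arrays had 5.36 to 6.50. Results are therefore given with and without the 12 arrays of the series whose Glycam1 intensity exceeded 2000. In bulk tissue, fewer cells of a type and less RNA per cell cannot be told apart.

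After 2 weeks of air, 64 of the 12351 genes had changed, which is 0.518%. Of these, 38 had risen (0.308%) and 26 had fallen (0.211%), and 911 genes (7.38%) had an unadjusted p below 0.05. The median size of the 64 differences was 0.657, and 5 rises and 5 falls were of at least 1. In 48 of the 64 the ranges of both groups did not overlap, which held for 204 of all genes tested (1.65%). Without the arrays of high Glycam1 intensity, 236 genes (1.91%) passed, 114 higher (0.923%) and 122 lower (0.988%), and they included 63 of the 64 with the same sign. With those arrays left out of the compared groups alone, 42 genes passed and 38 of the 64 were among them. Such arrays of the other groups enter this comparison only through the spread that all 9 groups share, and not through the difference. Leaving out 1 mouse gave 35 to 70 genes, and the count fell by more than 1.5 times without untreated replicate 3 (35 genes), untreated replicate 4 (38), sham replicate 2 (42) or sham replicate 4 (38). The largest falls were those of the mitochondrial carrier gene Slc25a34, the droplet gene Plin5 and the clock genes Npas2 and Arntl, and the largest rise was in Clca4a.

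**Figure D1:**
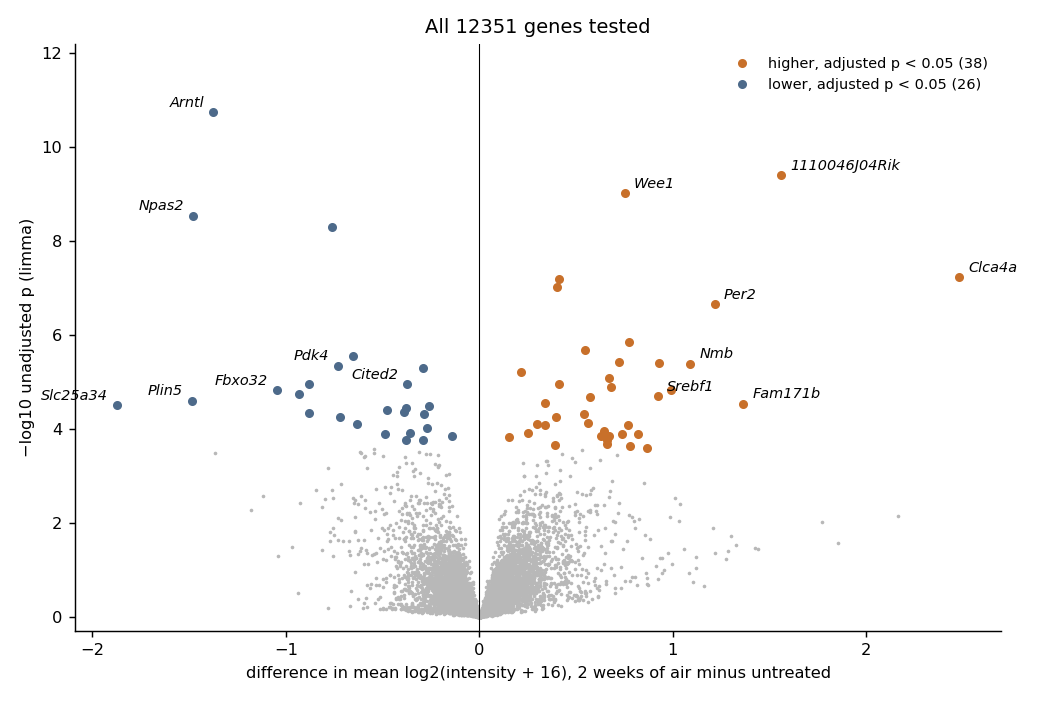
Every gene tested, by its difference in mean log2(intensity + 16) between sham and untreated mice (x axis) and the −log10 of limma's unadjusted p (y axis). Orange points are the 38 genes that rose and blue points the 26 that fell at an adjusted p below 0.05, and Arntl stands highest on the y axis.

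The clock activators Arntl and Npas2 fell, the repressor Per2 and the outputs Wee1 and Hlf rose, and Arntl had the smallest p-value of all genes tested. Arntl levels were 9.04, 9.53, 10.07, 9.63, 9.40 and 8.67 in untreated mice 1 to 6 and 7.89, 7.93, 8.06, 7.95, 8.14 and 8.13 in the sham mice. Every sham mouse was below every untreated mouse, and the sham mice lay within a narrow band while the untreated mice were spread out. Arntl fell by 1.38 ± 0.16 (SE), from 9.39 ± 0.49 to 8.01 ± 0.11 (SD, n = 6 each; limma adjusted p = 2.2e-07), or 2.60-fold on this scale. The exact two-sided permutation test gave p = 0.0022, the smallest that 6 against 6 allows and the value of any gene without overlap. It did so for 33 of the 91 genes described by sample. Many of those were chosen for their difference or p-value in these same mice, so this count is no separate evidence. Of all genes tested, 1.65% had groups that did not overlap. Without the arrays of high Glycam1 intensity the Arntl difference was -1.46 (adjusted p = 8.5e-08).

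Npas2, the partner that can replace CLOCK, had levels of 6.59, 8.04, 7.64, 7.36, 7.05 and 6.73 in the untreated mice. Its sham levels were 6.00, 5.77, 5.70, 5.89, 5.39 and 5.77, so that these groups did not overlap either. The sham values lay around the filter level of 5.71, near background. Npas2 fell by 1.48 ± 0.20 (SE; adjusted p = 8.9e-06). Clock itself had a smaller difference of -0.34 that did not pass with all arrays (adjusted p = 0.089) and did without those of high Glycam1 intensity (adjusted p = 0.0094), although its ranges did not overlap in either case. That value is from the brightest probe set, and the other 3 probe sets of Clock, all above the filter, had larger differences of -0.67 ± 0.13, -0.59 ± 0.11 and -0.66 ± 0.19 (SE). Arntl2 and Rora, the other measured genes of this arm, differed by 0.05 and -0.04. The 5 measured activators thus held 2 that fell and none that rose, where 0.211% of all genes fell and 0.308% rose. Their median was -0.34 for the probe sets used, against 0.008 over all genes tested.

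Among the repressors, Per2 was the single gene that passed, where 0.308% of all genes rose. Its untreated levels were 8.84, 8.58, 8.27, 8.53, 8.75 and 9.66, and its sham levels were 9.91, 10.11, 10.09, 10.10, 9.77 and 9.97. Untreated replicate 6 came close to the lowest sham mouse, and the other 5 were far below. Per2 rose by 1.22 ± 0.20 (SE; adjusted p = 0.00031), or 2.33-fold. Another probe set of Per2 above the filter had a smaller difference of 0.694 ± 0.186 (SE). The remaining repressors did not pass with all arrays. Cry1 was at 9.60 to 9.92 in untreated and 9.99 to 10.18 in sham mice, without overlap (difference 0.34, adjusted p = 0.21). Cry2 differed by 0.42 (adjusted p = 0.094) and passed without the arrays of high Glycam1 intensity (0.00016). Per3 differed by 0.35, Per1 by 0.31 and Ciart, which encodes a repressor of the BMAL1 pair, by 0.59. Nr1d1, which encodes the REV-ERBα repressor of Arntl, lay the other way. It was at 10.02 to 10.65 in untreated and 9.66 to 9.95 in sham mice, a difference of -0.61 (adjusted p = 0.056, and 0.0021 without the arrays of high Glycam1 intensity). In all, 8 of 10 repressors were above 0, against 53% of all genes tested, with a median of 0.35.

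The output genes include the factors that act through D-box elements and others under direct clock control. Wee1, whose kinase holds cells back from mitosis, had levels of 8.99, 8.55, 8.53, 8.51, 8.44 and 8.75 in untreated mice and of 9.52, 9.35, 9.20, 9.45, 9.29 and 9.45 in sham mice. The groups did not overlap, and Wee1 rose by 0.75 ± 0.10 (SE; adjusted p = 3.9e-06). Hlf, a D-box activator, was at 8.60 to 9.47 in untreated and 9.46 to 9.60 in sham mice, so that untreated replicate 6 reached the sham range. Hlf rose by 0.54 ± 0.12 (adjusted p = 0.015) and lost the call without untreated replicate 3 or 4 (adjusted p up to 0.099). Its relatives Dbp and Tef differed by 0.42 and 0.13 and did not pass. Tspan4, at 0.53, had an adjusted p of 0.052 and groups that did not overlap. Of 14 outputs measured, 2 rose and 1, Pdk4, fell, with a median of 0.15, where 0.308% of all genes rose and 0.211% fell. Without the arrays of high Glycam1 intensity 5 rose and 1 fell, where 0.923% of all genes rose and 0.988% fell.

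**Figure D2:**
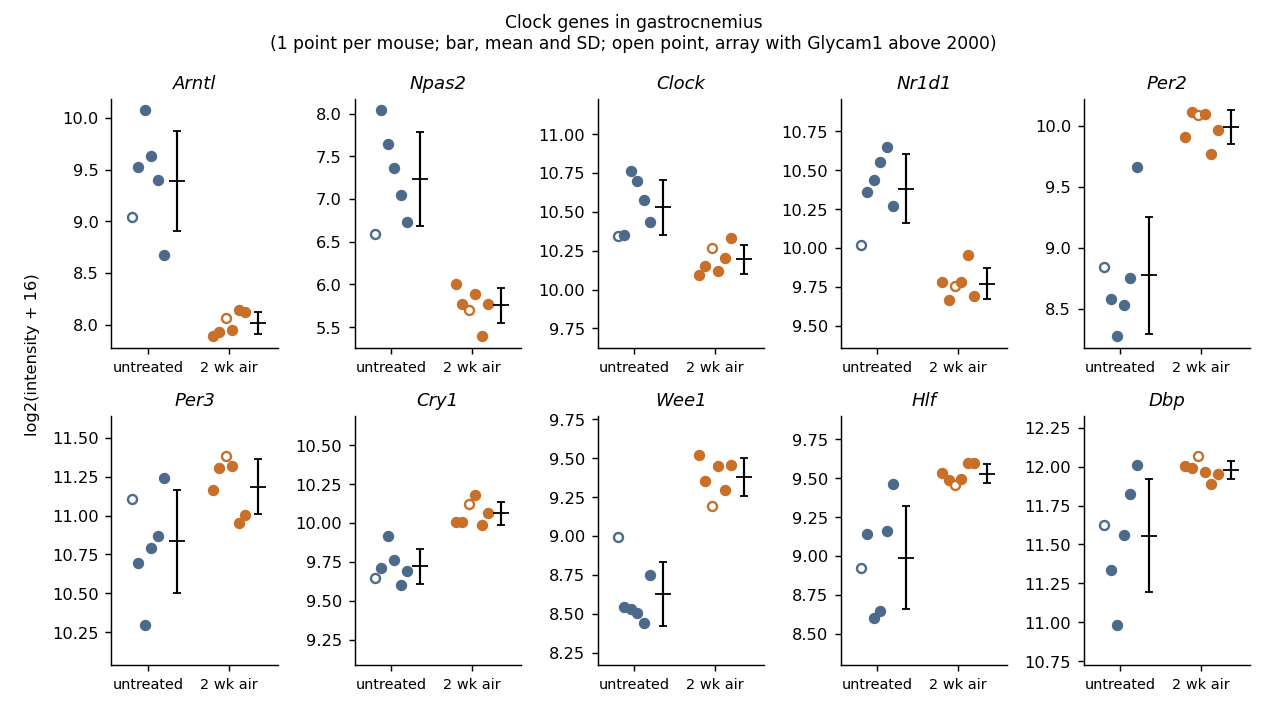
Levels of 10 clock genes, as log2(intensity + 16), in each of 6 untreated (blue) and 6 sham (orange) mice, with the mean and SD of each group; open points are the arrays of high Glycam1 intensity. Arntl and Npas2 are lower and Per2 and Wee1 higher in all sham mice, and the untreated points are the more scattered for Arntl, Per2 and Dbp.

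Clock genes were more scattered among untreated than among sham mice. As a description, the SD was larger in untreated than in sham mice for 23 of the 29 clock genes measured (79.3%), against 56.8% of all genes tested. The median SD of the clock genes was 0.241 in untreated and 0.136 in sham mice, against 0.162 and 0.155 over all genes. Which untreated mouse was highest or lowest varied from gene to gene. Replicate 3 had the highest Arntl (10.07) and the lowest Per2 (8.27) and Dbp (10.98). Replicate 6 had the lowest Arntl (8.67) and the highest Per2 (9.66), Hlf (9.47) and Dbp (12.01) of the untreated mice. Npas2 was highest in replicate 2 (8.04) and lowest in replicate 1 (6.59), Wee1 highest in replicate 1 (8.99) and lowest in replicate 5 (8.44), and Nr1d1 highest in replicate 5 (10.65) and lowest in replicate 1 (10.02). Per1 (8.27) and Ciart (7.39) were lowest in replicate 2, with Per1 highest in replicate 3 (9.85) and Ciart in replicate 6 (9.04). Neither replicate 3 nor replicate 6 was an array of high Glycam1 intensity, and the hours at which these animals were taken are not given in the sources used here.

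RefSeq promoter windows, from 250 bases before to 50 bases after the start on GRCm38.p6, were at hand for 26 of the 29 clock genes. They were searched on both strands for the E-box CACGTG, at which the BMAL1 pair acts, for TTANGTAA, the D-box, and for NTAGGTCA, the element of REV-ERB and ROR factors. None of these motifs contains another. The 3 stretches below show 1 gene for each element, which is in capitals, so that the letters can be set beside the changes above; they are written 5′ to 3′ on the gene's strand. Arntl lies on the plus strand at chr7:113207529-113207558, and the 30 bases run around the element at bases 30 to 37 after the start. Cry1 lies on the minus strand at chr10:85185055-85185254, with its E-box at -60 to -55. Per3 lies on the minus strand at chr4:151044666-151044915, with D-boxes at -205 to -198 and -158 to -151.
Arntl: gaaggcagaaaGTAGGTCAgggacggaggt
Cry1: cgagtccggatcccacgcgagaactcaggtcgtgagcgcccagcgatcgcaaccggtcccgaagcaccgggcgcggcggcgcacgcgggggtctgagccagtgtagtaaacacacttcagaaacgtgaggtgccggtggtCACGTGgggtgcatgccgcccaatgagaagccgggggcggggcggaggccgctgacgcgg
Per3: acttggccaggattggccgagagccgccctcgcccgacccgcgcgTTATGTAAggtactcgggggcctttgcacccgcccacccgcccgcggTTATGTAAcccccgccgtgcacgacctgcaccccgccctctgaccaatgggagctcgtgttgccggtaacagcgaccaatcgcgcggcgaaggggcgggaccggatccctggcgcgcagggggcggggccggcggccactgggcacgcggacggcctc

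The E-box letters stood in 10 of the 32 windows of the clock genes (31.2%), belonging to 9 genes, and in 7.15% of all 32851 windows. These genes were Bhlhe41, Ciart, Coq10b, Cry1, Klf15, Lonrf3, Per1, Tef and Tspan4, and none of them passed with all arrays. Per2 and Wee1, which rose, were among the genes without a window. The D-box letters stood in 2 of the 32 windows (Per3 and Coq10b) and in 2.32% of all. The REV-ERB and ROR letters stood in 2 (Arntl and Nfil3) and in 2.59% of all. Of the genes with a match, Arntl fell, and Ciart, Cry1, Per1, Per3, Tef and Tspan4 gave the values above. Klf15, Nfil3 and Coq10b differed by -0.16, -0.26 and -0.01. A match describes the letters and is no measured binding.

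In the lists of fuel use, Plin5 fell among 14 genes of lipid droplets and lipolysis, and Pdk4 among 13 genes of the pyruvate dehydrogenase switch. Of all genes tested, 0.211% fell. Slc25a34 and Acss1 fell as well and are in no list, and Acss1 was chosen after its values were seen. The enzymes that burn fat lay below 0 without passing. Plin5, which coats lipid droplets and ties them to mitochondria, had levels of 10.68, 9.73, 10.57, 11.21, 10.61 and 9.90 in untreated mice. Its sham levels were 9.22, 9.18, 8.77, 8.94, 8.81 and 8.86, all below the lowest untreated mouse. Plin5 fell by 1.49 ± 0.32 (SE), from 10.45 ± 0.54 to 8.96 ± 0.19 (SD, n = 6 each; limma adjusted p = 0.011), or 2.80-fold. The call held without the arrays of high Glycam1 intensity in all groups (-1.40, adjusted p = 0.0021). It was lost without them in the compared groups alone (adjusted p = 0.058) and without untreated replicate 4 (0.055), whose level was the highest.

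Slc25a34, a member of the mitochondrial carrier family, had levels of 7.52, 7.22, 7.95, 8.42, 7.92 and 7.01 in untreated mice and of 5.93, 6.31, 4.90, 6.41, 5.88 and 5.38 in sham mice. The groups did not overlap, and 2 sham mice were below the filter level. Slc25a34 fell by 1.87 ± 0.41 (SE; adjusted p = 0.012), the largest fall among the genes that passed, and it lost the call in the same pair of settings as Plin5 (adjusted p = 0.070 and 0.054). Pdk4, the kinase that shuts pyruvate out of the mitochondrial fuel cycle and spares glucose, was at 12.48 to 13.37 in untreated and 11.74 to 12.67 in sham mice. These ranges overlapped through untreated replicate 6, the lowest. Pdk4 fell by 0.73 ± 0.14 (SE; adjusted p = 0.0034), and lost the call where both groups were fitted alone (0.12). Acss1, which makes acetyl-CoA in mitochondria, fell by 0.49 ± 0.12 (adjusted p = 0.030).

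The enzymes of fat use in mitochondria shared the direction without passing. All 23 measured genes of that list were below 0, against 47% of all genes tested, with a median of -0.16, and none passed with all arrays. Ucp3, a muscle uncoupling protein known to follow fat supply, was at 8.63 to 10.12 in untreated and 8.34 to 9.31 in sham mice (difference -0.81, adjusted p = 0.25). Acot2, an acyl-CoA thioesterase, did not overlap between groups (10.54 to 10.94 and 9.84 to 10.46; difference -0.55, adjusted p = 0.051). Without the arrays of high Glycam1 intensity, Acot2, Acaa2 and Decr1 passed as lower (adjusted p = 0.021, 0.039 and 0.0074), where 0.988% of all genes did. Fabp3, the fatty acid carrier of muscle, was at 13.35 to 13.42 in untreated and 12.78 to 13.13 in sham mice, without overlap (difference -0.38, adjusted p = 0.075, and 0.0081 without those arrays). Of the 14 droplet and lipolysis genes, 7 were below 0 and Plin5 alone passed, with a median of -0.01, and 8 of 13 uptake genes were below 0. The uptake transporter Cd36 differed by -0.31 and the carnitine transporter Slc22a5 by -0.35, neither past the threshold. Of the 18 PPAR and PGC-1 regulators, none passed. Ppargc1a was at 0.11 and Ppara at -0.37.

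Markers of slow fibres, which burn more fat, lay the same way. Of 16 slow fibre markers 15 were below 0, with a median of -0.23 and none past the threshold, and their mean level was 11.71 to 12.10 in untreated and 11.50 to 11.90 in sham mice. Myh7, the slow myosin, differed by -0.21, and Fabp3 and Cd36 belong to that list as well. With the slow fibre mean as a covariate, the median of the fat use list was -0.085. Markers of fast glycolytic fibres had a median of -0.01. The mean level of the fat use list itself was 11.27 to 11.36 in untreated and 10.96 to 11.19 in sham mice, without overlap.

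No gene of glucose uptake or glycolysis passed with all arrays, where 0.518% of all genes did, a share at which lists of this size would hold few or no calls. The 23 measured genes of glucose uptake and glycogen had a median of -0.02, and the 16 of glycolysis and lactate one of -0.01. Slc2a4, the insulin-responsive glucose transporter, was at 12.75 to 12.95 in untreated and 12.80 to 12.97 in sham mice, with a difference of 0.01. Hk2, which traps glucose in the cell, differed by 0.08. Pfkfb3, which drives glycolysis through fructose bisphosphate, had groups that did not overlap and a difference of -0.35 (adjusted p = 0.094, and 0.032 without the arrays of high Glycam1 intensity). Phka1, a subunit of the kinase that starts glycogen breakdown, differed by 0.18 (adjusted p = 0.36, and 0.027 without them). The ketone and branched-chain amino acid list had 13 of 16 genes below 0, a median of -0.12 and no call. In the oxidative phosphorylation list 48 of 60 genes were below 0, with a median of -0.03 and no call.

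Genes of fat synthesis were among those that rose. Srebf1, the insulin-responsive regulator of fatty acid synthesis, had levels of 9.93, 9.73, 9.58, 9.38, 9.51 and 9.81 in untreated mice. Its sham levels were 10.50, 10.28, 11.41, 10.50, 10.44 and 10.35, so that all were above the untreated range and replicate 3, an array of high Glycam1 intensity, stood highest. Srebf1 rose by 0.92 ± 0.20 (SE; adjusted p = 0.0089), and by 0.81 without those arrays (adjusted p = 0.00062). With them left out of the compared groups alone its adjusted p was 0.051. Mid1ip1, which activates acetyl-CoA carboxylase, rose by 0.56 ± 0.13 (adjusted p = 0.022), with overlap through untreated replicate 6. It lost the call without untreated replicate 2, 3 or 4 or sham replicate 1, 2 or 4 (adjusted p up to 0.11). Mvd, an enzyme of sterol synthesis outside the list that was chosen after its values were seen, rose by 0.66 ± 0.16 (adjusted p = 0.035).

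In the list of lipogenesis and sterol synthesis, 18 of 24 genes were above 0 against 53% of all genes tested, with a median of 0.23. Of the 24, 2 rose, where 0.308% of all genes did. Elovl6 and Fasn had the largest differences, 2.16 ± 0.77 and 1.77 ± 0.66 (SE), but their SDs within a group were above 1 and neither passed (adjusted p = 0.29 and 0.35). Thrsp, Acaca and Acly, at 1.06, 0.98 and 0.80, did not pass either, and Scd1 was at 0.23. That value is from its brightest probe set, and another of Scd1 above the filter differed by 1.227 ± 0.613 (SE). Adipocyte markers lay the same way. Of 12 measured, 8 were above 0 with a median of 0.45 and none passed. Their mean level was 8.80 to 11.23 in untreated and 9.19 to 11.60 in sham mice, with the highest value of each group on its array of high Glycam1 intensity. Adipoq, the defining adipocyte hormone, was at 9.35 to 12.60 and 10.36 to 12.97. With the adipocyte mean as a covariate the median of the lipogenesis list was 0.15, and it was 0.14 without the arrays of high Glycam1 intensity. Thrsp is in both lists.

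**Figure D3:**
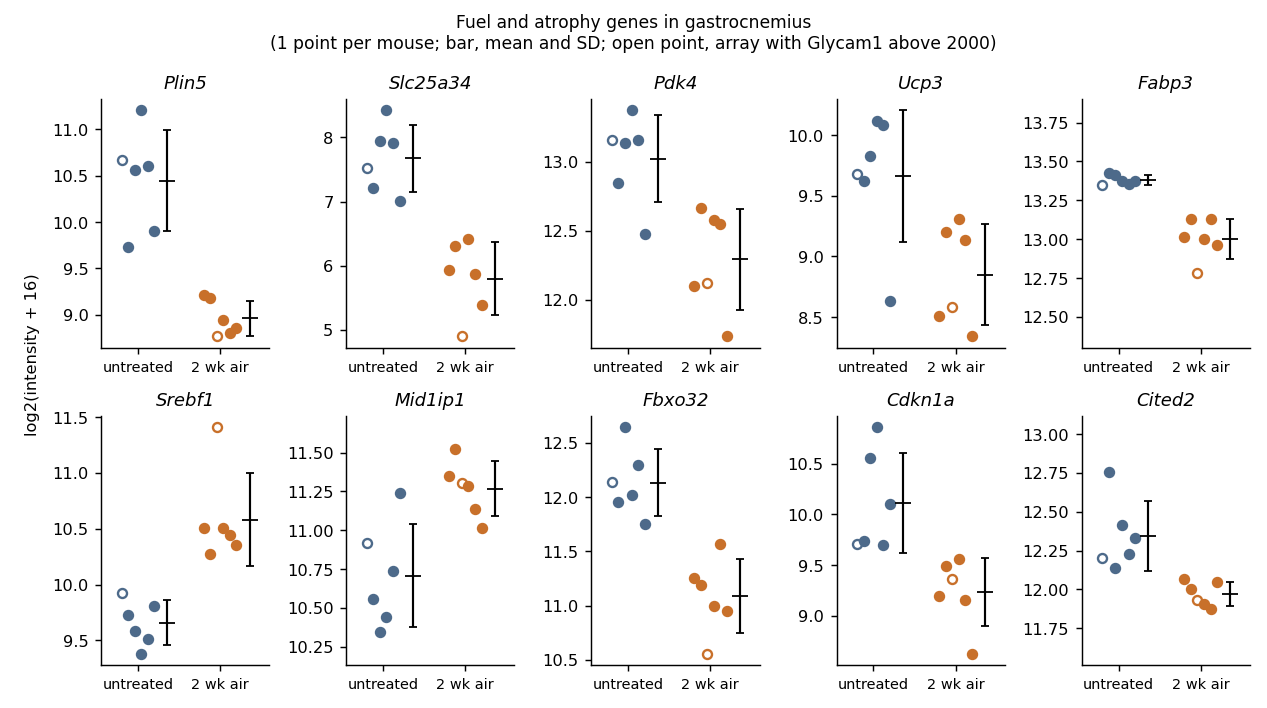
Levels of 10 genes of fuel use, fat synthesis and muscle wasting, as log2(intensity + 16), in each untreated (blue) and sham (orange) mouse, with the mean and SD of each group; open points are the arrays of high Glycam1 intensity. Plin5, Slc25a34, Fbxo32, Cdkn1a and Cited2 are lower and Srebf1 higher in all 6 sham mice, while Pdk4, Ucp3 and Mid1ip1 overlap.

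Fbxo32 encodes atrogin-1, the ubiquitin ligase that marks muscle proteins for breakdown in wasting. Its levels were 12.14, 11.95, 12.64, 12.02, 12.29 and 11.76 in untreated mice and 11.25, 11.19, 10.56, 10.99, 11.57 and 10.95 in sham mice. No sham mouse reached the untreated range. Fbxo32 fell by 1.05 ± 0.22 (SE), from 12.14 ± 0.31 to 11.09 ± 0.34 (SD, n = 6 each; limma adjusted p = 0.0072), or 2.07-fold. That value is from its brightest probe set. The others of Fbxo32, also above the filter, differed by -1.461 ± 0.288 and -0.495 ± 0.193 (SE), so the size of the fall depends on the probe set. It fell by 0.94 without the arrays of high Glycam1 intensity (adjusted p = 0.0093), and with those left out of the compared groups alone the adjusted p was 0.058. Trim63, the companion ligase MuRF1, was at 11.16 to 11.81 in untreated and 11.10 to 11.37 in sham mice (difference -0.25, adjusted p = 0.78). Asb2, a further muscle ligase, differed by -0.36 (adjusted p = 0.29, and 0.0081 without the arrays of high Glycam1 intensity). Of the 18 genes of this list 1 fell, where 0.211% of all genes did, none rose, and the median was -0.03.

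FOXO factors drive Fbxo32 in wasting muscle. Of 22 measured FOXO genes and targets, 18 were below 0, against 47% of all genes tested, with a median of -0.09. Cdkn1a, the cell cycle inhibitor p21, was at 9.70 to 10.86 in untreated and 8.63 to 9.56 in sham mice, without overlap. Cdkn1a fell by 0.88 ± 0.20 (SE; adjusted p = 0.015), and lost the call where both groups were fitted alone (0.13) and without untreated replicate 3, untreated replicate 4 or sham replicate 6 (adjusted p up to 0.088). Cited2, a transcriptional co-regulator, was at 12.14 to 12.75 and 11.88 to 12.07, and fell by 0.37 ± 0.08 (adjusted p = 0.0063). The factor Foxo1 differed by -0.03, with its highest level in each group on the array of high Glycam1 intensity (10.39 and 10.22). Gabarapl1, an autophagy gene, had groups that did not overlap at a difference of -0.42 (adjusted p = 0.39), and none of the 21 autophagy genes passed with all arrays, against 0.518% of all genes. Without the arrays of high Glycam1 intensity, Ulk1, the kinase that starts autophagy, and Ctsl, a lysosomal protease, passed as lower (adjusted p = 0.0088 and 0.013), against 0.988% of all genes.

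**Figure D4:**
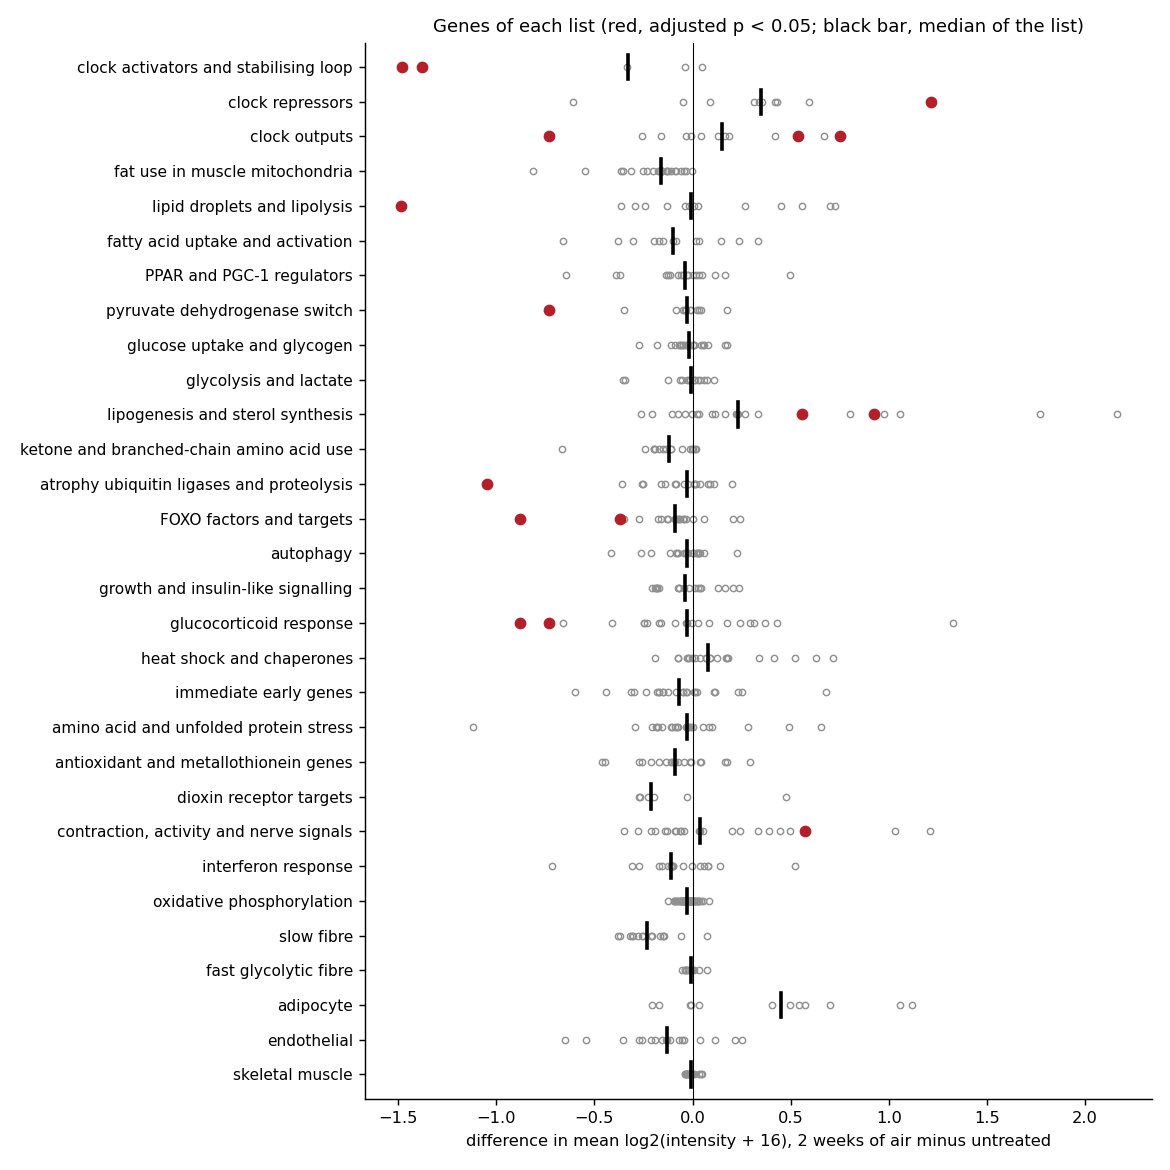
Differences of the measured genes of 25 function lists and 5 marker lists, in log2(intensity + 16), sham minus untreated. Each open point is a gene, red points passed at an adjusted p below 0.05 and the black bar is the list's median; the fat use list lies wholly at or below 0, and most lists have no red point.

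Genes that report stress were read against the 0.518% of all genes that passed. In the glucocorticoid list 2 of 22 genes fell, Pdk4 and Cdkn1a, and the median was -0.03. Fkbp5, the standard readout of glucocorticoid action, was at 8.78 to 10.19 in untreated and 8.42 to 9.49 in sham mice (difference -0.41, adjusted p = 0.77). Tsc22d3, another such target, was at 0.24, and the metallothioneins Mt1 and Mt2 were at 0.29 and 0.17. None of 22 heat shock genes, 24 immediate early genes, 25 genes of amino acid and unfolded protein stress, 20 antioxidant genes and 21 interferon genes passed with all arrays, where that share would give few or none in lists of this size, and their medians lay between -0.11 and 0.08. Without the arrays of high Glycam1 intensity, 4 of the 20 antioxidant genes passed as lower, against 0.988% of all genes, and none of the other 4 of these lists had a call. They were the glutathione peroxidase Gpx3 (adjusted p = 0.016), the glutathione transferase Gstm2 (0.017), the glutathione reductase Gsr (0.036) and the thioredoxin reductase Txnrd1 (0.044), with differences of -0.50, -0.18, -0.21 and -0.23. Hspa1b, an inducible heat shock protein, differed by 0.72 (adjusted p = 0.28), Fos by -0.32 (1.0) and Chac1, a target of amino acid stress, by -1.12 (0.21). Cyp1a1, the main target of the dioxin receptor, which smoke activates, was at 6.16 to 7.22 and 6.59 to 7.44 (difference 0.48, adjusted p = 0.71). It was the only 1 of 6 measured targets of that receptor above 0. The other 5 were below 0, the list's median was -0.21, and none passed. Among 24 genes of activity and nerve signals, Hdac9, a class IIa deacetylase that holds back muscle genes, rose by 0.57 ± 0.12 (SE; adjusted p = 0.0093), with the call lost for the mean of its probe sets or with both groups fitted alone (adjusted p up to 0.25).

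The largest rise belonged to Clca4a, of the family of calcium-activated chloride channel regulators. Its untreated levels were 5.13, 5.35, 5.68, 5.39, 5.24 and 5.51, all below the filter level, and its sham levels were 8.55, 7.42, 6.88, 9.16, 7.73 and 7.45. The groups were widely apart, and Clca4a rose by 2.48 ± 0.39 (SE; adjusted p = 0.00011). The uncharacterised locus 1110046J04Rik was at 6.60 to 7.23 and 7.86 to 9.07, and rose by 1.56 ± 0.20 (adjusted p = 2.4e-06). Fam171b, a membrane protein gene, rose by 1.36 ± 0.30 (adjusted p = 0.012) and lost its call without sham replicate 4 (0.078), its highest mouse. Nmb, which encodes the peptide neuromedin B, was at 7.13 to 7.63 and 8.14 to 9.01, and rose by 1.09 ± 0.21 (adjusted p = 0.0034). Gkn3, a gastrokine, was at 6.79 to 7.19 and 7.69 to 8.37, and rose by 0.93 (adjusted p = 0.0034).

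Smaller rises among the 12 largest were those of 2310001H17Rik (0.99), Pnmt (0.87), Cilp (0.82), Cpne2 (0.78) and Fmo2 (0.77). Pnmt, the enzyme that makes adrenaline, had an adjusted p of 0.049 and passed in 6 of 15 other settings. With 1 mouse left out at a time, Pnmt passed in 3 of 12 fits, Cpne2 in 2, Cilp in 5 and Tmem140, below, in 8. Cilp, an extracellular protein of cartilage and tendon, rose while 10 of the 12 tendon and cartilage markers, a list that holds it, were below 0. Fmo2, a flavin monooxygenase, was at 8.28 to 9.10 and 9.32 to 9.78 without overlap. Adamts4, a matrix protease, was at 5.69 to 6.69 in untreated and 5.12 to 5.77 in sham mice, so that most sham values lay below the filter level of 5.71, near background. Its difference of -0.93 ran from -1.25 to -0.52 with the pseudocount and other settings. The other falls included the muscle gene Ppp1r27 (-0.88), Slc16a9 of the monocarboxylate transporter family (-0.76), Tmem140 (-0.72) and Plekhg1 (-0.66). Slc16a9 was at 9.83 to 10.07 in untreated mice other than replicate 6, which at 9.20 lay within the sham range of 8.69 to 9.22. For the 14 named genes that passed and have more than 1 probe set above the filter, all probe sets had the same sign.

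The 7 other groups of the series were set beside these genes, and 3 of them were fitted against the untreated mice. The fits of 2 weeks of smoke, 12 weeks of air and 24 weeks of air against untreated mice share the untreated animals with the sham comparison, so that a shift in those 6 mice enters all of them. In these fits 0.607%, 2.25% and 2.34% of all genes passed, in that order. After 2 weeks of smoke, Arntl was at 8.25 ± 0.14 (SD, n = 6), against 8.01 ± 0.11 in the sham mice. It was at 8.30 ± 0.15 after 12 and 8.70 ± 0.35 after 24 weeks of air. Per2 stood at 9.97 ± 0.24 after smoke, 9.86 ± 0.19 after 12 and 9.51 ± 0.27 after 24 weeks of air, against 9.99 ± 0.14 in the sham mice. Both genes thus passed against the untreated mice in each of these groups (adjusted p between 1.7e-05 and 0.038).

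The 4 groups with longer smoke or cessation were not all on the sham side of the untreated mice, and no fit of them against those mice was made here. Arntl was at 8.21 ± 0.24 (SD, n = 7) after 12 weeks of smoke and ran from 8.45 to 9.24 (n = 6) after 24 weeks. In mice whose 12 weeks of smoke were followed by 12 weeks labelled FA, it was at 9.43 ± 0.16, near the untreated mean of 9.39 ± 0.49. In those whose smoke was followed by 12 weeks labelled RA, which the labels do not spell out, Arntl was at 9.90 ± 0.33. Per2 was at 9.85 ± 0.13 and 9.55 ± 0.60 after 12 and 24 weeks of smoke, and at 8.81 ± 0.49 and 7.93 ± 0.36 in the FA and RA cessation groups, against 8.77 ± 0.48 untreated. Npas2 was at 6.99 ± 0.14 and 8.18 ± 0.49 in these cessation groups, against 7.23 ± 0.55 untreated and 5.75 ± 0.21 in the sham mice. The means of these 3 clock genes after smoke and then FA thus lay close to the untreated ones. Per the study's design, these mice breathed air in the device for their last 12 weeks. The cause of these levels was not tested. Plin5 was at 10.14 ± 0.42 and 10.22 ± 0.72 in the FA and RA cessation groups and Fbxo32 at 11.98 ± 0.28 and 12.13 ± 0.25, also nearer to the untreated means of 10.45 and 12.13 than to those of the sham mice.

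The fuel and wasting genes differed in where the later air groups lay. Plin5, Fbxo32 and Pdk4 had means between those of sham and untreated mice, Ucp3 did so at 12 weeks (9.06) but not at 24 (9.82, above the untreated 9.66), and Mid1ip1 was above both groups (11.50 and 11.42, against 11.27 sham and 10.71 untreated). Plin5 was at 9.10 ± 0.24 after 2 weeks of smoke, 9.75 ± 0.46 after 12 and 9.68 ± 0.28 after 24 weeks of air, and against untreated mice it passed after smoke (adjusted p = 0.023) but not at 12 or 24 weeks (0.33 and 0.19). Fbxo32 was at 11.55 ± 0.25, 11.51 ± 0.46 and 11.98 ± 0.18 in the same order and passed in none (adjusted p = 0.28, 0.13 and 0.79). Pdk4 was at 12.78, 12.64 and 12.97 in that order and passed in none. Clca4a stood at 7.80 ± 1.00 after smoke and 6.63 ± 0.45 and 6.24 ± 0.57 after 12 and 24 weeks of air. The 1110046J04Rik level, by contrast, was 8.24, 8.36 and 8.21 and passed in all 3. Whether the 12 and 24 week groups differ from 2 weeks of air was not tested.

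Smoke for 2 weeks could be compared directly with air for 2 weeks, without the untreated mice. No gene passed (0 of 12351), and 255 (2.06%) had an unadjusted p below 0.05. For Arntl the smoke minus air difference was 0.23, for Plin5 0.13, for Fbxo32 0.46, for Pdk4 0.49 and for Ucp3 0.72, each with an adjusted p of 1.

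**Figure D5:**
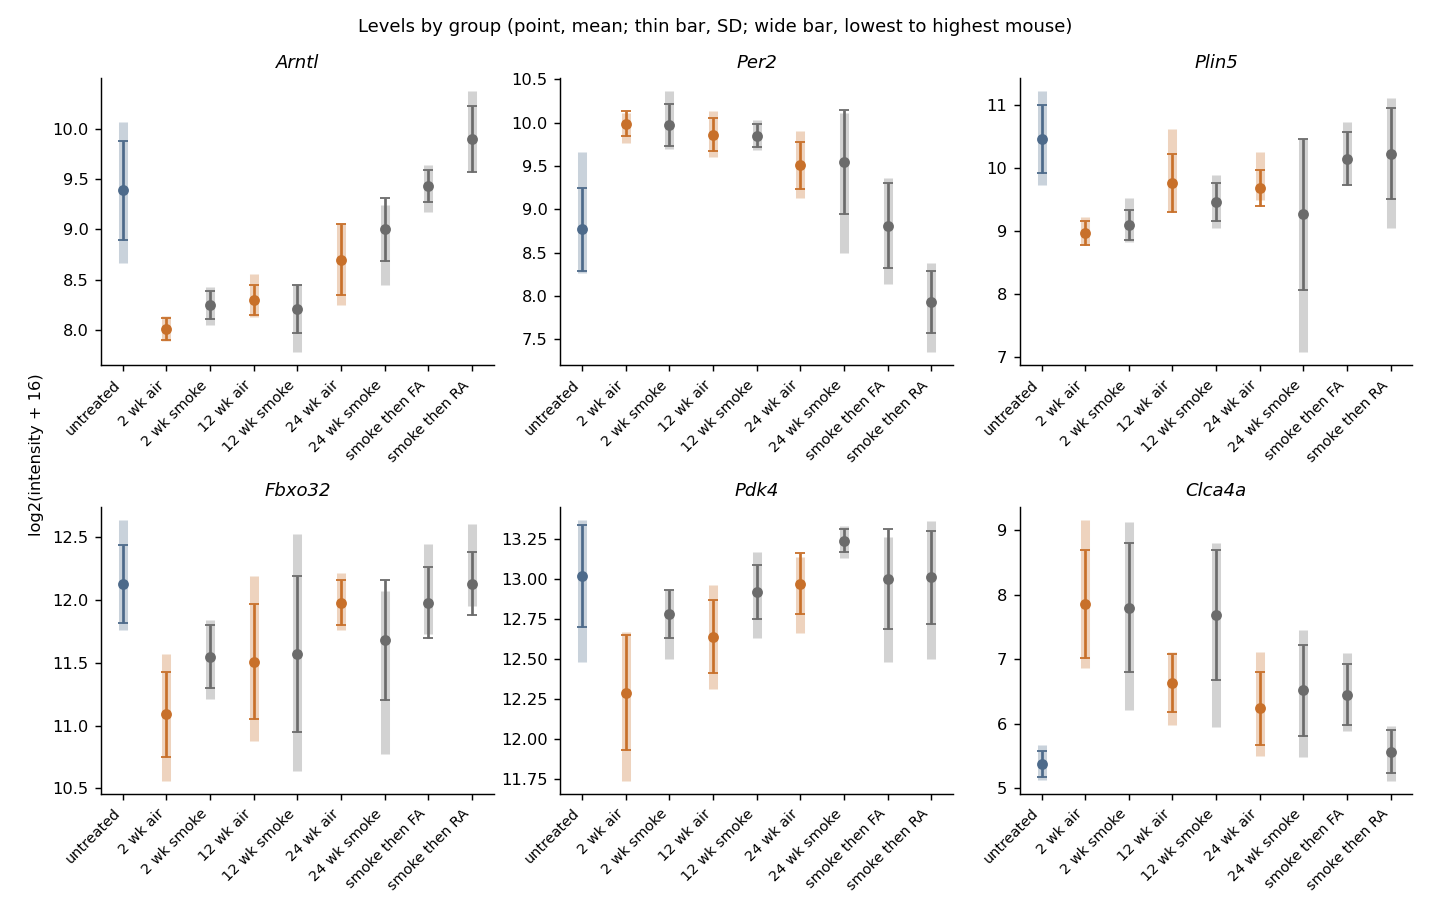
Mean log2(intensity + 16) of 6 genes (points, with SD as thin bars and the lowest to highest mouse as wide bars) in all 9 groups of the series. The mice given air for 2 weeks have the lowest mean of Arntl, Plin5, Fbxo32 and Pdk4 and the highest of Per2 and Clca4a, and both cessation groups have Arntl and Per2 means near or beyond those of untreated mice.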

How the data were processed

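Gastrocnemius RNA was amplified, biotin-labelled and hybridised to 1-colour arrays, per the labels' protocols. The authors deposited 1 table of linear intensity values for 45037 probe sets and 56 arrays. No source used here names its normalization, and its values run from -20 to 15890, with 0.46% below 0. Values were floored at -15, 16 was added and log2 was taken. The probe set annotation gave 1 symbol to 34945 probe sets, several to 932 and none to 9160. The probe set of highest mean stood for each of 18193 genes, and those below the 40th percentile (5.71) were left out. In limma 3.58.1 (R 4.3.3), all 9 groups were fitted together over 55 mice, with the 2 arrays of 1 mouse averaged, and p-values were adjusted over 12351 genes. The fit was tested on simulated data. Single genes had exact permutation tests. Lists were not tested.

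Named genes were the 12 largest rises and falls past the threshold (3 probe sets of shared sequence left out), passing members of the clock, fuel and wasting lists, the 2 members of lowest p in each of 25 function lists, and 34 fixed genes; others were chosen after their values were seen. The members and the 43 lists were chosen with earlier results of these data known. Nothing says that the mice of a group came from separate litters or days, so p-values measure the spread between these samples. For limma that spread is pooled within all 9 groups, and is not that of the compared groups alone. The number of arrays limits the precision. Alternatives changed the filter, probe set, pseudocount, scaling, weights, moderation, covariates and arrays. Figures were drawn with matplotlib 3.10.9.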

Additional observations from a re-analysis of the deposited data

Results flagged for a closer look

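Among 182 groups of 6 mice for the genes described by sample, 18 had 1 mouse far from the rest by Dixon's ratio, and chance flags about 1 in 20. Of these, 8 were the arrays of high Glycam1 intensity, and the flags of Glycam1 itself among them follow from how those arrays were chosen. On sham replicate 3 they were Srebf1 at 11.41, Plekhg1 at 8.01, Ctsl at 11.52, Hdac9 at 8.73, Foxo1 at 10.22 and Glycam1 at 13.21. On untreated replicate 1 they were Foxo1 at 10.39 and Glycam1 at 13.37. With such arrays left out of all groups, Srebf1, Plekhg1 and Hdac9 kept their calls (adjusted p = 0.00062, 0.0021 and 0.0051).

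Sham replicate 2 stood apart for 5 genes, low for Slc16a9 (8.69), Slc22a5 (7.48), Ndufa5 (12.81) and Ndufs3 (12.78) and high for Phka1 (12.85). Its peripheral nerve markers had a mean level of 9.90, against 8.18 to 8.77 in the other sham mice. Untreated replicate 6 was low for Slc16a9 (9.20) and Ucp3 (8.63), untreated replicate 4 low for Igfbp5 (12.71), untreated replicate 3 high for Mt2 (10.48) and sham replicate 5 high for Gabarapl1 (9.80). The part of these mice in the differences is given by the fits that leave out 1 mouse.

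Among marker lists, the means that stood apart were those of lymphocytes (10.58 in untreated replicate 1 and 9.95 in sham replicate 3) and of lymph node vessels and stroma (10.47 and 10.18). In sham replicate 3 the macrophage markers (9.77) and cell cycle genes (7.69) did as well.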

How the results depend on the processing

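No named gene that passed changed its sign in any setting (804 of 804 values), and 14 of the 29 passed in all the settings of the processing, 13 also with each mouse left out. The count of 64 genes, 38 higher and 26 lower, became 236 (114 and 122) without the arrays of high Glycam1 intensity in any group, and 42 (24 higher) without them in the compared groups. It became 663 (347 and 316) with array weights, 104 (49 lower) with the adipocyte mean as a covariate, and 51 higher and 50 lower genes passed at an adjusted p below 0.1. Leaving out 1 mouse gave 35 to 70 genes, 20 to 39 higher and 13 to 36 lower. Arrays of groups other than the compared ones enter only through the shared estimate of each gene's spread. Beyond that, the causes were not tested. No paired analysis was possible because the labels give no number that ties a sham mouse to an untreated one. All 64 genes stayed called with array weights, 39 of them with both groups fitted alone, where 80 genes passed. In the latter fit Pdk4, Cdkn1a, Mid1ip1, Cited2, Plekhg1, Hlf, Hdac9, Cilp and Pnmt lost their calls. The other settings, among them no filter, other pseudocounts, quantile normalization and probe set choice, gave 60 to 81 genes. The covariates for list medians were added after seeing the data. Genes near background, such as untreated Clca4a and sham Npas2, have differences that depend on the pseudocount, from 1.67 to 3.02 and from -1.80 to -0.85 over the settings.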

Other observations

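Genes outside the fuel, clock and wasting lists made up most of the 64. The genes in this paragraph and the next were chosen after their values were seen, other than the endothelial marker list. Cd93, a glycoprotein of endothelial cells, fell by 0.38 ± 0.09 (SE; limma adjusted p = 0.035), and its ranges did not overlap. Pcdh12, a cadherin of endothelial junctions, fell by 0.63 ± 0.15 (adjusted p = 0.023). Of 18 endothelial markers 14 were below 0, with a median of -0.13 and none past the threshold with all arrays, where 0.518% of all genes passed. Kdr, the main receptor for vascular endothelial growth factor, did not overlap between groups at a difference of -0.54 (adjusted p = 0.056). Without the arrays of high Glycam1 intensity, Kdr, Cldn5 and Tek passed as lower (adjusted p = 0.016, 0.0032 and 0.011), against 0.988% of all genes. The mean level of the endothelial markers was 9.02 to 9.19 in untreated mice and 8.77 to 8.95 in sham mice other than replicate 3, an array of high Glycam1 intensity, at 9.19.

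Single genes that act on chromatin or RNA also passed, and they were not taken from a list. Tet2, an enzyme that oxidises methylated cytosine, fell by 0.29 ± 0.06 (SE; adjusted p = 0.0037), Chd7, a chromatin remodeller, by 0.36 ± 0.09 (0.030), and Ago4, of the Argonaute family, by 0.29 ± 0.06 (0.015). Nsun2, an RNA methyltransferase, rose by 0.40 ± 0.06 (adjusted p = 0.00014), and the mismatch repair gene Pms2 by 0.77 ± 0.18 (0.023). Each of these 5 had groups that did not overlap, as had 48 of the 64 genes that passed and 1.65% of all genes tested. Among muscle and signalling genes, Mylk4, a myosin light chain kinase, rose by 0.22 ± 0.04 (adjusted p = 0.0043), Jak2 by 0.34 ± 0.08 (0.023) and Mustn1, a nuclear protein of muscle and skeleton, by 0.66 ± 0.16 (0.042). The load-responsive gene Ankrd1 and the calcium pump inhibitor Sln had differences of 1.21 and 1.03 that did not pass (adjusted p = 0.40 and 0.34).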
